A study of Arabidopsis thaliana with 6 samples.

Results

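AT1G19960, AT1G05340 and AT2G38870 are 3 Arabidopsis thaliana genes whose signal was lower in roots that overexpress RXR1 than in wild-type roots. They were picked by name, 1 probe set each (a probe set is the group of short probes that reads 1 transcript), out of 22746 probe sets tested on Affymetrix ATH1 arrays. The overexpressor and wild-type values themselves led to the choice, because all 3 were among 23 probe sets called lower in that comparison. Their difference between those 2 groups is therefore described here and not tested.

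AT2G38870 belongs to the potato inhibitor I family, small proteins that block serine proteases and that are best known, from tomato and potato, as products of wounded and infected tissue. AT1G05340 belongs to the CYSTM family, very short proteins that end in a cysteine-rich membrane-associated module and are linked to tolerance of several stresses. No role is assigned to AT1G19960 here, and the sizes of the 3 proteins were not analysed here, so the shared description as small stress proteins rests on AT1G05340 and AT2G38870. RXR1 (AT3G25240), the gene altered in both lines, codes for a protein of the DUF506 family that holds back the elongation of root hairs.

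RNA came from roots of 7-day-old seedlings grown on vertical plates of half-strength MS medium. The groups were an RXR1 overexpressor, an rxr1 mutant and wild type, with 2 arrays each and 6 in all. The labels name neither the promoter of the transgene, the mutant allele nor the number of independent lines, and nothing in them says that replicates came from separate plants, so the p-values reflect array-to-array spread alone and that spread may be technical. RXR1 had 0 probe sets under its own name, so the labels could not be checked against its level.

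Wild-type replicate 2 stood apart from the other arrays. In the authors' deposited table it correlated with the other 5 at 0.9700 to 0.9826, against 0.9938 to 0.9978 for the 10 pairs among the others. The replicate SD over all probe sets was 0.101 log2 units in the overexpressor, 0.114 in the mutant and 0.191 in wild type. Array medians ran from 108.3 to 111.3 signal units. Values without it, which are differences from wild-type replicate 1 alone and carry no test, are given beside differences of 0.05 or more that they turn round or move by more than 1.5 times.

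AT1G19960 had a linear signal of 119.6 and 119.6 in the overexpressor arrays, 217 and 191 in the mutant arrays, and 298 and 285 in the wild-type arrays. The overexpressor was the lowest group, the mutant lay between, and no array of one group overlapped another group. Group means were 119.6 ± 0.0223 in the overexpressor, 204 ± 18.2 in the mutant and 292 ± 9.41 in wild type (SD, n = 2 each). On the log2 scale the overexpressor minus wild type difference was -1.29 ± 0.0955 (SE), or 2.44-fold lower, which left 41.0% of the wild-type signal.

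AT1G05340, the CYSTM gene, had a linear signal of 393 and 398 in the overexpressor arrays, 675 and 655 in the mutant arrays, and 876 and 777 in the wild-type arrays. The order was the same and the groups again did not overlap. Its log2 difference between overexpressor and wild type was -1.06 ± 0.0933 (SE, n = 2 per group), or 2.09-fold lower, at 47.9% of the wild-type signal.

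AT2G38870, the protease inhibitor gene, had a linear signal of 787 and 703 in the overexpressor arrays, 1100.0 and 1099 in the mutant arrays, and 1436 and 1482 in the wild-type arrays. It too was lowest in the overexpressor and intermediate in the mutant, without overlap. Its log2 difference between overexpressor and wild type was -0.97 ± 0.0922 (SE, n = 2 per group), or 1.96-fold lower, at 51.0% of the wild-type signal. Since these are bulk root samples, fewer cells of a type and less RNA per cell cannot be told apart for any of the 3 genes.

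**Figure D1:**
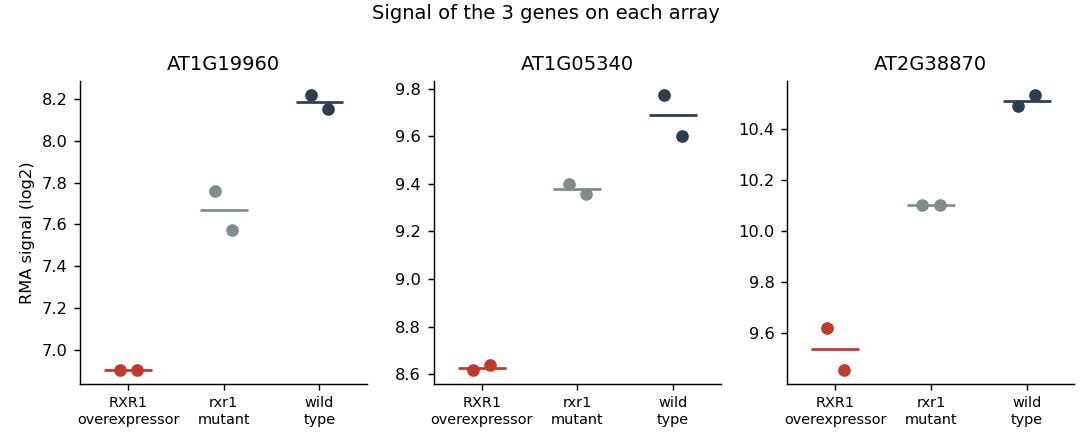
RMA signal on the log2 scale (vertical axis, a separate range for each gene) of AT1G19960, AT1G05340 and AT2G38870 in each array. Each point is an array and each bar the mean of 2 arrays. In all 3 genes both overexpressor arrays lie below both mutant arrays, and these below both wild-type arrays.

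Among all probe sets tested, 0.101% were called lower in the overexpressor, which is the set the 3 genes were taken from. At an unadjusted p under 0.05, 6.48% were lower, and 19.8% had both overexpressor arrays below both wild-type arrays. Nothing is read from these shares, because the 3 genes were chosen in this comparison. Ordered by p-value within it, AT1G19960 stood at place 2, next to the root hair peroxidase gene AT3G49960 and the xyloglucan-modifying enzyme gene XTH26. AT1G05340 stood at place 7, after the peroxidase gene AT5G64120, and AT2G38870 followed it at place 8. By size of the fall over all 22746 probe sets the places were 9, 26 and 42. At the edge of the called set, the last probe set inside had a log2 difference of -0.92 and the first named one outside, AT3G20460, had -0.90. EXPA7, a root hair expansin, and FDH, formate dehydrogenase, were the next named ones outside, at -0.76 and -0.88.

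The log2 differences between single arrays show how far the result depended on any 1 of them. For AT1G19960 the 4 pairings of an overexpressor with a wild-type array gave -1.32 to -1.25. The pairings gave -1.16 to -0.96 for AT1G05340 and -1.08 to -0.87 for AT2G38870. Without wild-type replicate 2 the differences were -1.32, -1.15 and -0.95 for AT1G19960, AT1G05340 and AT2G38870, close to the values with it.

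**Figure D2:**
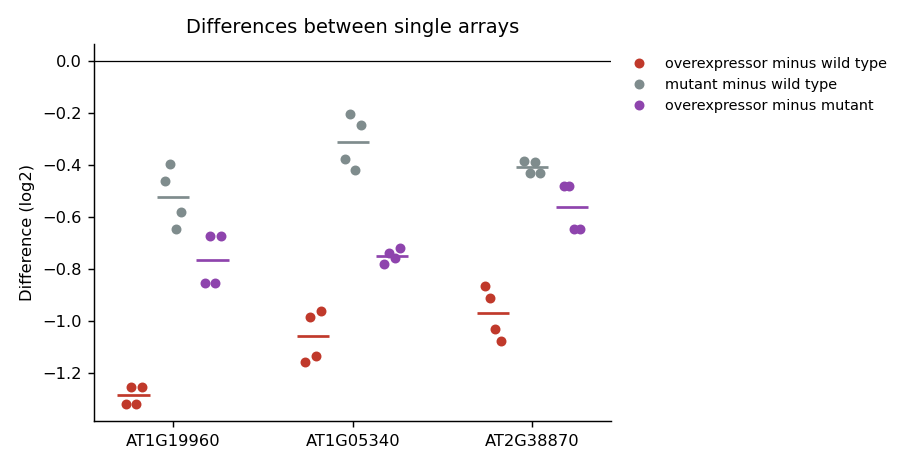
Log2 differences between single arrays (vertical axis) for AT1G19960, AT1G05340 and AT2G38870. Each point is 1 of 4 array pairings of a comparison and each bar their mean. All 4 pairings lie below 0 in every comparison, and the mutant minus wild type points lie closest to 0 in all 3 genes.

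The replicates of the 3 genes differed by unequal amounts. AT1G19960 differed by 0.000381 log2 units between the overexpressor arrays, by 0.18 between the mutant arrays and by 0.0658 between the wild-type arrays. The median gap over the 3852 probe sets within 0.5 log2 units of its mean signal was 0.0807, 0.0901 and 0.188 in the same 3 groups. AT1G19960 was thus closer than its median peer in the overexpressor and in wild type, and wider in the mutant. AT2G38870 was wider in the overexpressor, where its arrays differed by 0.16 against a median of 0.0614, and closer in the mutant, at 0.00177 against 0.0742. A small gap between only 2 arrays raises the chance that a probe set is called, so it is a property the choice also acted on.

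The rxr1 mutant arrays entered the choice of the genes through the estimate of spread, and the wild-type arrays they are set against entered it directly, so this comparison is not independent of it. Only 0.0044% of probe sets (1 of 22746) were called in the mutant against wild type, and none of the 3 genes was. All 3 were lower with an unadjusted p under 0.05, as were 4.33% of all probe sets tested. AT1G19960 differed by -0.52 log2 units, with a 95% interval of -0.75 to -0.30 that is not corrected for multiple tests (limma adjusted p = 0.524). It had 69.6% of the wild-type signal in the mutant.

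AT1G05340 differed by -0.31 in the mutant (95% interval -0.53 to -0.09, limma adjusted p = 0.524), at 80.6% of the wild-type signal. Its closest mutant and wild-type arrays were 0.20 log2 units apart, little more than the 0.17 between its own wild-type arrays, so this is the pair of neighbouring groups least clearly separated. AT2G38870 differed by -0.41 (95% interval -0.62 to -0.19, limma adjusted p = 0.524), at 75.4% of the wild-type signal, with 0.38 between the closest arrays. Over all probe sets the median difference was -0.00511, and 51.6% were lower in the mutant. Leaving out wild-type replicate 1, so that replicate 2 was the lone control, called 2743 probe sets. AT1G19960 was then at -0.49 (adjusted p = 0.0297) and AT2G38870 at -0.43 (adjusted p = 0.0377), while without replicate 2 neither passed (adjusted p = 0.234 and 0.266).

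The overexpressor was also set against the mutant, which asks whether the 2 altered lines differ from each other. The difference in means uses no wild-type value, but its intervals and p-values take their spread from all arrays, wild type included. The overexpressor arrays are shared with the choice, and the mutant arrays entered it through the estimate of spread. This comparison is therefore not independent of the choice. Only 0.0132% of probe sets (3 of 22746) were called, and 0.00879% were called lower, but the 3 genes were not among them. All 3 were lower with an unadjusted p under 0.05, as were 2.73% of all probe sets tested. AT1G19960 was at -0.76 log2 units (95% interval -0.99 to -0.54, limma adjusted p = 0.142), or 58.9% of the mutant signal. AT1G05340 was at -0.75 (95% interval -0.97 to -0.53, limma adjusted p = 0.142), or 59.5%. AT2G38870 was at -0.56 (95% interval -0.78 to -0.35, limma adjusted p = 0.227), or 67.7%.

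The closest overexpressor and mutant arrays were 0.67, 0.72 and 0.48 log2 units apart for AT1G19960, AT1G05340 and AT2G38870, each more than the largest replicate gap of that gene. With only the 4 arrays of these 2 groups in the fit, which leaves out the wider spread of wild type, 58 probe sets were called. AT1G19960 and AT1G05340 were then past the threshold (limma adjusted p = 0.0342 and 0.0292) and AT2G38870 was not (0.0587). For a single gene, permuting 2 arrays against 2 gives an exact p of 0.333 at the least.

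An order of overexpressor below mutant below wild type without overlap, shown by 3 of 3 genes, was found in 2.88% of all probe sets. It does not set the 3 apart from the genes they were chosen from, because 21 of the 23 called probe sets had it. Both mutant arrays lay below both wild-type arrays in 19.0% of all probe sets, and both overexpressor arrays below both mutant arrays in 20.3%. The mutant and overexpressor differences from wild type share their control arrays, and the values are therefore given side by side without a test of their agreement.

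Measured relatives of the 2 family members had smaller differences between overexpressor and wild type. The 2 members were chosen for their fall in that comparison and the relatives were not, so nothing is read from this contrast in size. Of 6 listed potato inhibitor I genes, 3 were measured under a name, AT2G38870 and 2 relatives. AT2G38900 had a linear signal of 14.6 and 14.4 in the overexpressor, 13.9 and 14.0 in the mutant, and 14.0 and 13.7 in wild type. AT3G46860 had 15.9 and 14.9 in the overexpressor, 14.7 and 15.3 in the mutant, and 14.3 and 13.7 in wild type. Neither relative was shown to lie above background, since no detection calls were used here. The overexpressor minus wild type differences were 0.07 and 0.13 log2 units for AT2G38900 and AT3G46860 (limma adjusted p = 0.78 and 0.575).

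Of 13 listed CYSTM genes, 6 were measured, AT1G05340 and 5 relatives, and 0 of these 5 were called in any comparison (limma; 2 of 5 at an unadjusted p under 0.05 in the overexpressor against wild type). Over all probe sets, 0.101% were called in the overexpressor against wild type and 2695 of 22746 had an unadjusted p under 0.05. AT4G33660 was the relative with the most negative difference in the overexpressor. Its linear signal was 205 and 205 in the overexpressor, 249 and 263 in the mutant, and 274 and 306 in wild type, a log2 difference of -0.50 ± 0.0932 between overexpressor and wild type (SE, limma adjusted p = 0.149). Its groups did not overlap and had the same order as those of AT1G05340.

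AT3G22240 had a linear signal of 5050 and 4757 in the overexpressor, 5912 and 5430 in the mutant, and 6442 and 6619.5 in wild type, with a log2 difference of -0.41 between overexpressor and wild type (limma adjusted p = 0.206). It too had the order of AT1G05340, at a smaller size. The other 3 relatives, AT1G56060, AT2G32190 and AT5G04080, were at 0.18, -0.03 and -0.02 (limma adjusted p from 0.661 to 0.962). AT1G56060 is the widest of them, with 44.6 and 56.0 in the overexpressor, 39.6 and 49.6 in the mutant, and 45.5 and 42.8 in wild type.

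**Figure D3:**
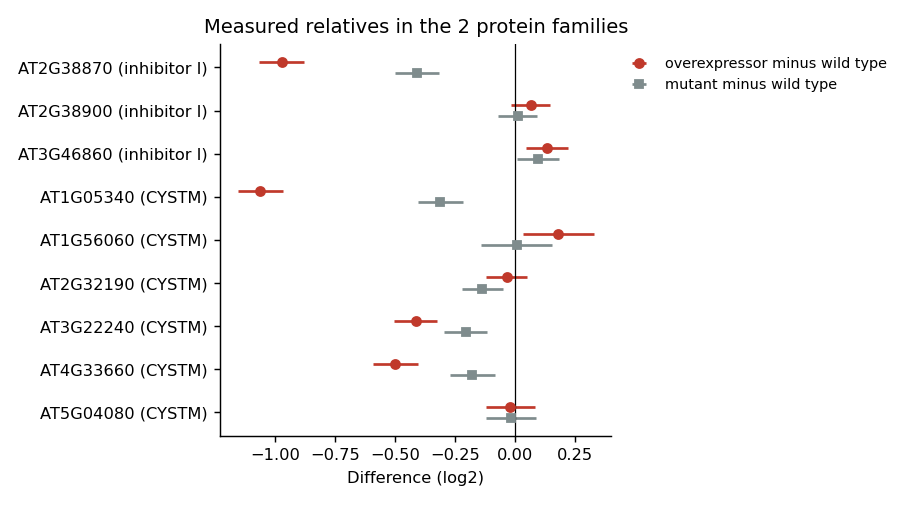
Log2 differences from wild type (horizontal axis) of the overexpressor (circles) and the mutant (squares) for the measured potato inhibitor I and CYSTM genes, with bars of 1 SE from the fit over all probe sets. AT2G38870 and AT1G05340, which were chosen for their fall, lie at -0.97 and -1.06 in the overexpressor, and their relatives between -0.50 and 0.18.

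Other protease inhibitors (Kunitz inhibitors, cystatins, defensin-like trypsin inhibitors and serpins) were measured in 12 of 26 listed genes. In the overexpressor 11 of 12 were below wild type and 0 were called (limma; 3 at an unadjusted p under 0.05), with a median of -0.24 log2 units. Over all probe sets 48.4% were below wild type, with a median of 0.00566. Of these probe sets 0.101% were called, and 2695 of 22746 had an unadjusted p under 0.05. Without wild-type replicate 2 the list's median was -0.07, so its size rested largely on that array. AT2G43530, of the trypsin inhibitor group, was at 24.5 and 21.7 in the overexpressor, 46.5 and 37.0 in the mutant, and 41.7 and 52.4 in wild type. Its log2 difference between overexpressor and wild type was -1.02 ± 0.153 (SE, limma adjusted p = 0.0833). Unlike the 3 genes, its mutant and wild-type arrays overlapped.

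The Kunitz inhibitor gene AT1G17860 had 2548 and 2895 in the overexpressor, 2927 and 3142 in the mutant, and 3009 and 4398 in wild type, a log2 difference of -0.42 between overexpressor and wild type (limma adjusted p = 0.413). AT2G43535, next to AT2G43530 in the trypsin inhibitor group, was at -0.41 (limma adjusted p = 0.461). In both genes wild-type replicate 2 was the highest array, and without it AT1G17860 was at -0.15 and AT2G43535 at -0.09. In the mutant the list had 10 of 12 below wild type, 0 called (limma; 1 at an unadjusted p under 0.05) and a median of -0.11, or -0.00867 without wild-type replicate 2. Over all probe sets 51.6% were lower in the mutant, 0.0044% were called and 2122 of 22746 had an unadjusted p under 0.05.

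The stress pathways in which genes of these families usually respond were thinly covered by named probe sets. Salicylic acid defence had 2 of 20 listed genes measured, jasmonate and ethylene defence 4 of 30, cold, drought and abscisic acid response 5 of 29, oxidative stress response 3 of 21, and heat shock proteins 3 of 15. No member of these 5 lists was called in any comparison by limma, and 0 to 2 members of each list had an unadjusted p under 0.05 in a comparison. So few genes say little here, because only 0.101%, 0.0044% and 0.0132% of all probe sets were called. Those are the overexpressor and the mutant against wild type, and the overexpressor against the mutant. An unadjusted p under 0.05 was found for 2695, 2122 and 1148 of 22746 there. The list medians in the overexpressor against wild type were -0.27, -0.12, -0.07, -0.02 and -0.14 log2 units, in the order in which the lists are named above. Their medians in the mutant against wild type were -0.28, -0.10, -0.09, -0.00252 and -0.09. Without wild-type replicate 2 the overexpressor medians were -0.20, -0.29, -0.10, -0.30 and -0.07, and the mutant medians -0.21, -0.26, -0.11, -0.04 and 0.03, so several of them moved by as much as their own size. All of these medians lie nearer to 0 than the values of the 3 genes in the overexpressor. The 3 genes were chosen for their fall there, so nothing is read from that.

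COR47 and LTI30, both dehydrins induced by cold, had the largest differences in the cold and drought list. COR47 was at 4229.7 and 4496 in the overexpressor, 4649 and 5030.0 in the mutant, and 5413 and 6354 in wild type, a log2 difference of -0.43 between overexpressor and wild type (limma adjusted p = 0.24). LTI30 differed from wild type by -0.44 in overexpressor roots and by -0.48 in mutant roots (limma adjusted p = 0.344 and 0.524). Among salicylic acid genes, the glutaredoxin gene GRX480 was at -0.39 and the lipase-like gene SAG101 at -0.16 in the overexpressor (limma adjusted p = 0.334 and 0.585).

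The genes named here from the jasmonate and ethylene list did not share the pattern of the 3 genes. THI2.2, a thionin gene, had 41.7 and 37.4 in the overexpressor, 35.4 and 34.8 in the mutant, and 65.8 and 38.9 in wild type. Its 2 wild-type arrays differed by more than the replicates of either other group, and its difference between overexpressor and wild type was -0.36, or -0.74 without replicate 2 (limma adjusted p = 0.555 with it). The defensin genes PDF1.2 and PDF1.2b were at -0.18 and -0.07 in the overexpressor against wild type (limma adjusted p = 0.726 and 0.809), or at -0.46 and -0.12 without wild-type replicate 2. For oxidative stress, NDB2, a mitochondrial NADH dehydrogenase gene, was at -0.29, GSTU25, a glutathione transferase gene, at -0.02 and AT2G21640 at 0.08 (limma adjusted p = 0.382, 0.985 and 0.797). The wild-type arrays of GSTU25 were far apart, at 505 and 278, and without replicate 2 it was at -0.45. The heat shock genes AT5G37670, ATHSP22.0 and AT5G51440 were at -0.20, -0.14 and -0.14 (limma adjusted p = 0.506, 0.621 and 0.837). Without wild-type replicate 2, AT5G37670 was at -0.07 and AT5G51440 at 0.16, the opposite sign.

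Genes of the rapid touch and wound response were measured in 7 of 17 listed. Most lay above wild type in the overexpressor, unlike the 3 genes, and below it in the mutant, like them. This difference was not tested. In the overexpressor 6 of 7 were above wild type, with a median of 0.47 log2 units (0.34 without wild-type replicate 2), and in the mutant 6 of 7 were below it, with a median of -1.04. None was called in any comparison by limma. At an unadjusted p under 0.05 were 1 of 7 in the overexpressor and 6 of 7 in the mutant, each against wild type. Between the overexpressor and the mutant, 5 of 7 were. Among the 22746 probe sets tested, 48.4% lay below wild type for the overexpressor and 51.6% for the mutant. Of these probe sets, 2695, 2122 and 1148 had an unadjusted p under 0.05 in the same 3 comparisons. The zinc-finger gene STZ had 408 and 560.4 in the overexpressor, 85.9 and 247 in the mutant, and 343 and 317 in wild type. The mutant was its lowest group, where for AT1G19960, AT1G05340 and AT2G38870 the overexpressor was. The calmodulin-like gene CML38 was at 0.50 and AT4G27280 at 0.54 in the overexpressor (limma adjusted p = 0.57 and 0.388).

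**Figure D4:**
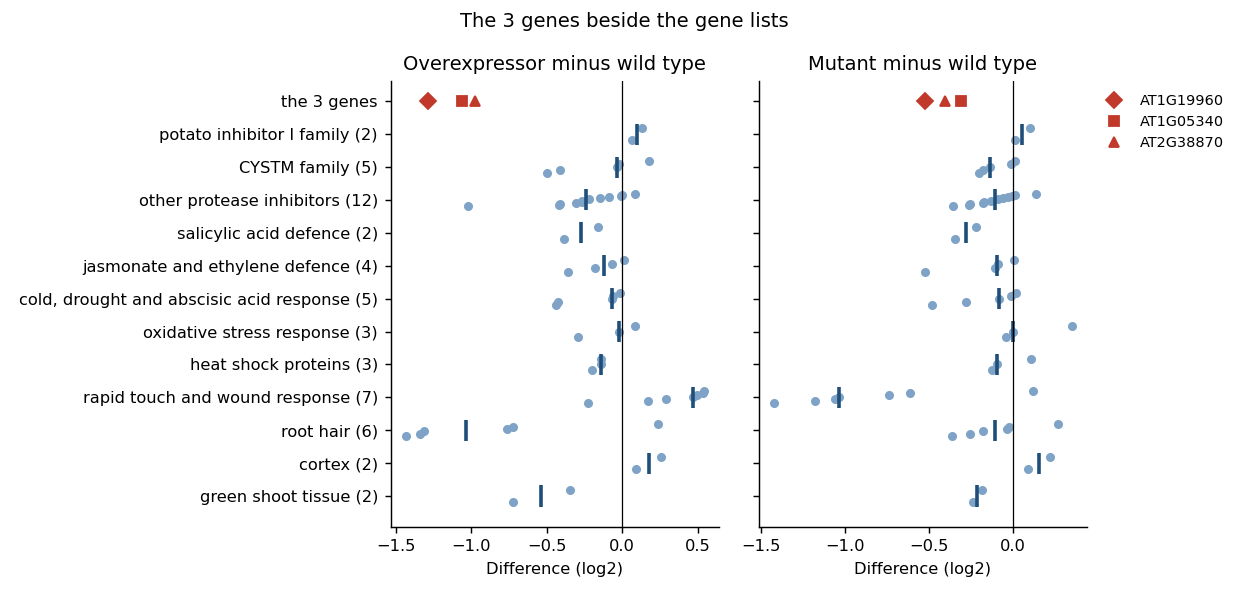
Log2 differences from wild type (horizontal axis) in the overexpressor (left) and the mutant (right). Red symbols are AT1G19960, AT1G05340 and AT2G38870, blue points the other measured genes of each list, with their number in brackets, and dark bars list medians. The root hair list has the lowest median in the overexpressor, -1.04, and the rapid touch and wound list the lowest in the mutant, also -1.04.

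A pair of root hair markers fell in the overexpressor. Of 30 listed, 6 were measured, 5 of 6 were below wild type and 2 were called lower, with a median of -1.04 log2 units. At an unadjusted p under 0.05 (limma) were 6 of 6, the member above wild type included. Over all probe sets 48.4% were below wild type, 0.101% were called lower and 2695 of 22746 had an unadjusted p under 0.05. The list was chosen with earlier results of these data known, so its counts are not independent of the calls. XTH26 was at 34.6 and 34.8 in the overexpressor, 73.6 and 63.1 in the mutant, and 88.5 and 87.0 in wild type. AT3G49960 was at 229 and 223 in the overexpressor, 482 and 453 in the mutant, and 539 and 582 in wild type. Both fell in the overexpressor against wild type (-1.34 and -1.31, limma adjusted p = 0.017 for each) and had the group order of the 3 genes. AT3G49960 also fell in the overexpressor against the mutant (-1.05, limma adjusted p = 0.042), a call lost with median centring and with quantile normalization, which left 0 lower calls in that comparison (limma, against 2 in the fit on the deposited scale). The peroxidase gene AT1G34510 was at -1.43 (limma adjusted p = 0.128), with mutant and wild-type arrays that overlapped.

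The member above wild type was the endoglucanase gene GH9C2, at 0.24. The summed signal of the 6 root hair markers was 2525 and 2676 in the overexpressor, 3247 and 3633 in the mutant, and 3187 and 3429 in wild type. GH9C2, which was listed where GH9C1 was meant, made up 1693 and 1738 of it in the overexpressor, 1685 and 1814 in the mutant, and 1439 and 1470.2 in wild type. Without it, an alternative chosen after seeing the data, the sums of the other 5 were 832 and 937 in the overexpressor, 1562 and 1819 in the mutant, and 1748 and 1959 in wild type. The mutant mean then lay between the other groups, as it did for each of these 5 markers and for the 3 genes, although mutant and wild-type sums overlapped. For AT1G34510 and the expansin gene EXPA18 the mutant was almost at wild type, at -0.04 and -0.03 log2 units (limma adjusted p = 0.975 and 0.959). The share of all probe sets with a mutant mean between the other groups was not computed, so nothing is read from this order of means. The part of root hair cells in the values of the 3 genes was not tested.

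Group means of 2 green shoot markers and of an actin measure of RNA quality had the same order as the 3 genes. The photosystem gene PSAN and the light-harvesting gene LHCB4.1, 2 of 7 listed, had a summed signal of 442.0 and 446 in the overexpressor, 504 and 562 in the mutant, and 644 and 584 in wild type. Their log2 differences between overexpressor and wild type were -0.72 and -0.35 (limma adjusted p = 0.0895 and 0.266). The 3' minus 5' difference of an actin control, which rises as RNA is degraded, was 1.21 and 1.11 in the overexpressor, 1.29 and 1.19 in the mutant, and 1.39 and 1.40 in wild type. A second actin control set gave 3.18 and 3.02, 3.23 and 3.32, and 3.32 and 3.36 in the same 3 groups. The same measure for a GAPDH control did not follow that order, at 0.254 and 0.292 in the overexpressor, 0.358 and 0.148 in the mutant, and 0.373 and 0.280 in wild type. For a ubiquitin control the order was the opposite, without overlap, at 0.00833 and 0.0112 in the overexpressor, -0.0266 and -0.00614 in the mutant, and -0.104 and -0.0388 in wild type. A second ubiquitin set did not repeat that order, at 1.4 and 1.359, 1.336 and 1.324, and 1.361 and 1.308 in the same 3 groups, which overlapped. A second GAPDH set gave 0.665 and 0.579, 0.669 and 0.359, and 0.576 and 0.571. The part of shoot tissue or of RNA quality in the values of the 3 genes was not tested.

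The cortex markers, 2 of 4 listed, were at 0.26 (AT1G62500) and 0.09 (AT1G09750) in the overexpressor against wild type (limma adjusted p = 0.439 and 0.787), or at 0.13 and -0.06 without wild-type replicate 2. Their summed signal was 356 and 347 in the overexpressor, 380.3 and 353 in the mutant, and 356 and 290 in wild type. Without wild-type replicate 2, their median difference was 0.0329 in the overexpressor, against 0.18 with it. Markers of endodermis, xylem, phloem, pericycle, root cap and dividing cells had 0 members measured under a name. RMA signals are above 0 for every probe set, so the presence of a marker, and with it the labelled tissue, was not checked here.

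The 3 genes were alike in profile, with Pearson's r over the 6 arrays of 0.987 for AT1G19960 and AT1G05340, 0.986 for AT1G19960 and AT2G38870, and 0.971 for AT1G05340 and AT2G38870. The points are 3 pairs of replicate arrays, and the genes were chosen for the same difference, so these are descriptions. Among 879 named probe sets with an SD of at least 0.25 log2 units over the arrays, the 5 most like each gene filled 15 places. The 3 genes themselves took 4 of these places and 7 other genes the rest.

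XTH26 was the closest to both AT1G19960 (r = 0.989) and AT1G05340 (r = 0.991). The endoglucanase gene GH9C1, itself among the 23 called lower, was among the 5 closest of all 3 genes (r = 0.986, 0.975 and 0.984 with AT1G19960, AT1G05340 and AT2G38870). It had 193 and 198 in the overexpressor, 289 and 282 in the mutant, and 337 and 366 in wild type. EXPA7 (r = 0.981) and AT3G49960 (r = 0.98) were close to AT1G05340, and 3 of the 7 genes came from the root hair list. Of the 879 probe sets, 11, 17 and 16 had an r of at least 0.95 with AT1G19960, AT1G05340 and AT2G38870. The share of root hair markers among the 879 was not counted, and that list was chosen with earlier results of these data known. Nothing is therefore read from the count of root hair genes.

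AT2G38870 was closest to genes outside that list. AT2G41380, annotated as a methyltransferase, had r = 0.991 with it and was at 622 and 583 in the overexpressor, 813 and 825 in the mutant, and 956 and 1077 in wild type. AT1G68620, an alpha/beta hydrolase gene, had r = 0.987 and was at 109 and 94.7 in the overexpressor, 145 and 147 in the mutant, and 166 and 172 in wild type. Their log2 differences between overexpressor and wild type were -0.75 and -0.73 (limma adjusted p = 0.0574 and 0.0678). AT5G64120, a peroxidase gene, was close to AT1G19960 (r = 0.978) and AT2G38870 (r = 0.979).

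**Figure D5:**
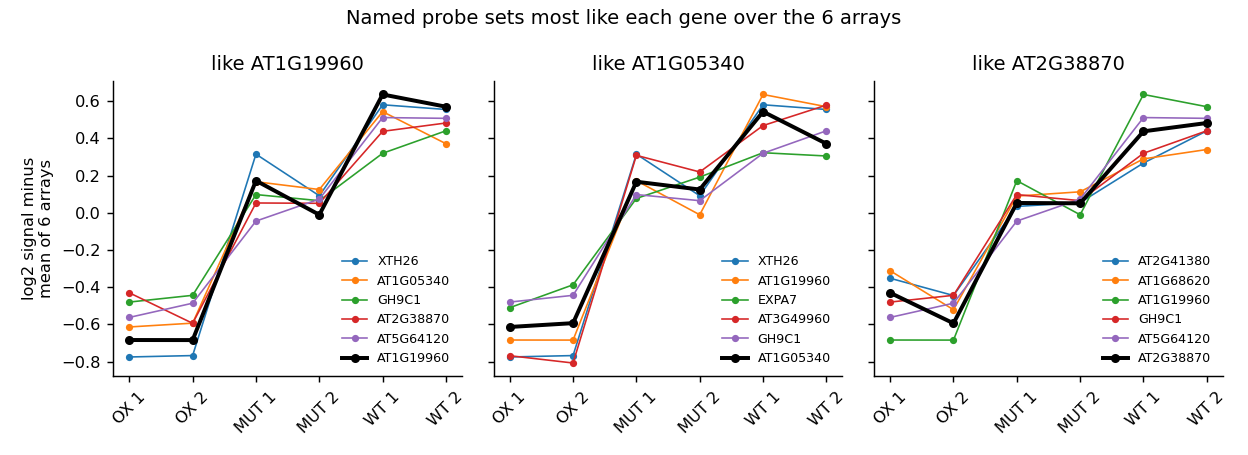
Log2 signal minus the mean of the 6 arrays (vertical axis) by array (horizontal axis; OX overexpressor, MUT mutant, WT wild type, with replicate numbers). The black line is the gene named above each panel and the coloured lines are the 5 named probe sets most like it. All lines are lowest in the overexpressor and highest in wild type, and wild-type replicate 2 is not consistently above replicate 1.

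Of the 6 nearest measured neighbours of the 3 genes on the chromosome, 0 were called in any comparison (limma; 0 at an unadjusted p under 0.05). That says little, because at most 0.101% of all probe sets were called in a comparison. In the overexpressor against wild type, 2695 of 22746 had an unadjusted p under 0.05. For 3 of the neighbours a fall would be hard to see, because their signals were dim in every group. AT1G05330 was at 12.6 and 13.5 in the overexpressor, 12.4 and 12.1 in the mutant, and 13.3 and 13.1 in wild type, and AT2G38890 and GH9B5 lay between 17.9 and 23.4 on all arrays. The nearest measured genes around AT1G19960 were the endoglucanase gene GH9B5 and AT1G19970, at -0.02 and 0.09 log2 units in the overexpressor against wild type (limma adjusted p = 0.944 and 0.72). AT1G05330 and AT1G05350, directly beside AT1G05340, were at -0.02 and 0.03 (limma adjusted p = 0.944 and 0.939). YLS5 and AT2G38890, around AT2G38870, were at -0.18 and 0.00272 (limma adjusted p = 0.457 and 0.994). AT1G05350 was at 401 and 418 in the overexpressor, 402 and 431 in the mutant, and 436 and 368 in wild type, with overlapping groups.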

How the data were processed

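Total RNA was biotin-labelled and hybridised to 6 ATH1 arrays. The deposited values are linear signal intensity per probe set; per the submitters' processing notes, the tools were RMA and Affymetrix Expression Console, whose versions are not given in the sources used here. A deposited copy of the intensity values differed by at most 5e-06. The authors also deposited a correlation score for each pair of arrays, used only to describe the arrays. Log2 was taken of the deposited intensity, with no pseudocount. After 64 controls were left out, 22746 probe sets were fitted with limma 3.58.1 (R 4.3.3), using lmFit and eBayes on all 6 arrays with a mean for each genotype; residual degrees of freedom were 3 and prior ones 4.25. The Benjamini-Hochberg method was applied to each of 3 contrasts over all probe sets, two-sided, and calls were made at an adjusted p under 0.05. The fit was tested on simulated data. The number of arrays limits the precision.

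Gene names are those of the platform annotation, brought up to date with the gene table of TAIR10.1: 13513 probe sets had 1 listed gene, 503 several and 8730 none listed, and 13436 matched a locus. Several probe sets read 144 of the loci, and the brightest was used there. The 3 genes and all lists were chosen with earlier results of these data known. The text names the 3 genes, all measured relatives, up to 3 members with the largest overexpressor difference and any called member per list, the 5 most similar probe sets, nearest neighbours and the probe sets beside the 3 genes or the threshold. The root hair list held GH9C2 where GH9C1 was meant, and GH9C2 and EXPA18 are named outside this rule. Promoter and protein sequences were not used here. The alternatives were another centring, quantile normalization, another variance model, fewer arrays, a replicate block, each array left out, a filter on dim probe sets and the second copy.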

Additional observations from a re-analysis of the deposited data

How the results depend on the processing

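The differences of AT1G19960, AT1G05340 and AT2G38870 kept their sign in all 3 comparisons under all 13 alternatives; the counts of calls varied. Why the counts varied was not tested. Overexpressor against wild type gave 36 calls with trend and robust variance and 167 with the replicate block, against 23, and 0 with only the 4 arrays compared (limma; 1978 at an unadjusted p under 0.05). Leaving out single arrays gave 0 to 3790 calls, with 3790 without wild-type replicate 1, 36 without wild-type replicate 2 and 0 without either overexpressor or either mutant array (1097 to 1978 unadjusted). The 3 genes were then also not called (adjusted p from 0.0674 to 0.433), although a mutant array can move only their variance. Their differences across left-out arrays ran from -1.15 to -0.97 for AT1G05340 and from -1.05 to -0.89 for AT2G38870. Mutant against wild type gave 0 calls with 4 arrays (1346 unadjusted), 2 with the replicate block and 0 to 2743 with single arrays left out (2743 without wild-type replicate 1, 7 without replicate 2, 4 without mutant replicate 1, 0 without the others). There AT1G19960 ran from -0.61 to -0.43 and AT2G38870 from -0.43 to -0.39. Overexpressor against mutant gave 1 call with median centring and 1 with quantile normalization, both higher, 58 with 4 arrays, 30 with the replicate block and 0 to 58 with single arrays left out (58 without either wild-type array, 3 without mutant replicate 1, 0 without the others). AT1G19960 stayed at -0.76 with 4 arrays and with the replicate block (adjusted p = 0.0342 and 0.0455), and AT1G05340 at -0.75 (0.0292 and 0.0475). Across left-out arrays they ran from -0.86 to -0.67 and from -0.77 to -0.73. Where 1 array of a group was left, it was assumed to vary like the others.

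Replicate numbers are shared by the groups, but nothing in the labels pairs the arrays. The deviations of same-numbered arrays correlated over probe sets at 0.125 (overexpressor and mutant), 0.053 (overexpressor and wild type) and 0.316 (mutant and wild type).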
